A study of Homo sapiens with 2 samples.

Results

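The SWI/SNF, INO80 and CHD remodelers are enzymes, with their partner subunits, that spend ATP to slide, evict or exchange nucleosomes. A list of 36 genes was described, each taken from the brightest transcript cluster, the array's summary of one gene locus, that the platform table assigned to that symbol alone. Of the 36 genes, 35 were measured and 32 reached the signal floor on at least 1 array, among 22465 named genes measured and 14451 at or above the floor. The floor was a log2 signal of 3.62, which is where the middle transcript cluster lay when the 2 arrays were averaged. Every measured member had 1 cluster, so no choice between clusters was made. CHD2, a relative of CHD1, was the gene not measured, because both clusters that list it also list its neighbour CHASERR.

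RNA came from NCI-H446, an established small cell lung carcinoma line, in 2 groups of 1 array each. The MTA1 cells stably carried an overexpression plasmid for MTA1, which belongs to the NuRD deacetylase and remodeling complex, and the NC cells carried the control vector in its place. The labels do not state the plasmid's promoter or whether the cells are 1 clone. With 1 array per group no test could be run, and construct, culture and array cannot be told apart.

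SWI/SNF complexes carry 1 of 2 ATPases, SMARCA2 or SMARCA4, on a common core of SMARCB, SMARCC, SMARCD and SMARCE subunits. They come as BAF, defined by ARID1A or ARID1B, as PBAF, defined by ARID2, PBRM1, BRD7 and PHF10, and as a smaller non-canonical form that holds BRD9. Subunits are exchanged during neural development, when ACTL6A gives way to ACTL6B and PHF10 to DPF1 and DPF3. ISWI enzymes space nucleosomes, INO80 and EP400 act on nucleosomes with variant histones, and CHD proteins carry chromodomains that read histone tails. SMARCA4, ARID1A and other SWI/SNF genes are known as tumour suppressors in lung and other cancers.

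MTA1 itself had a log2 signal of 9.82 on the MTA1 array and 7.31 on the NC array, a 5.71-fold difference in the direction of its label. The deposited log2 signals had medians of 3.68 on the MTA1 array and 3.67 on the NC array, and 829 features exceeded 16, the log2 limit of a 16-bit scanner. No remodeler gene was among those features, but such values point to a rescaling that the labels do not describe, and the size of the folds below depends on it. The labelled cell type was weakly marked. Of 10 measured neuroendocrine markers of small cell lung cancer, 8 were below the floor on both arrays, CHGA, SYP and NCAM1 among them. INSM1 reached 4.21 on the MTA1 array and 4.07 on the NC array, and UCHL1 5.21 and 5.31. Of 5 markers of non-neuroendocrine forms, POU2F3 was below the floor on both arrays and 4 were well above it. YAP1 stood at 10.11 on the MTA1 array and 10.10 on the NC array, while VIM, AXL and ANXA1 were 1.26-fold, 1.24-fold and 1.32-fold higher on the MTA1 array. Of 3 fibroblast markers, LUM was below the floor, and COL1A1 and DCN were at most 4.03 and 3.89 on either array. The leukocyte markers PTPRC and CD3E were below the floor on both arrays, while CD68, a lysosomal protein gene, stood at 11.19 on the MTA1 array and 11.26 on the NC array. Of 4 epithelial markers CDH1 was below the floor, and the keratin gene KRT8 was 1.66-fold higher on the MTA1 array. Of 4 neuronal markers RBFOX3 was below the floor. MAP2, a dendritic cytoskeleton gene, stood at 6.14 on the MTA1 array and 5.24 on the NC array, or 1.87-fold higher, SYT1 was 1.23-fold higher, and SNAP25 read 5.00 and 4.92. The part of these marker differences in the remodeler values was not tested.

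The remodeler genes differed little between the arrays, and so did the typical named gene at or above the floor. No member reached 1.5-fold in either direction, a size that 1.45% of all named genes at or above the floor passed on the higher side and 1.74% on the lower side. None reached 2-fold either, where the shares of all genes were 0.291% higher and 0.339% lower. At shares this small, few or none of 32 genes would be counted, whatever the list. At the smaller threshold of 1.2-fold, 1 member, SMARCA1, was higher on the MTA1 array, where 8.4% of all genes were, and 2, PHF10 and SMARCC2, were lower, where 9.35% were. The member counts came to 3.12% and 6.25% of the 32. After repeated quantile normalisation 3 members, or 9.38%, were higher by this much, where 10.4% of all genes were, and 1 was lower, where 7.51% were. After loess 2 were higher, where 10.1% of all genes were, and 1 lower, where 7.67% were. After a shift to the hybridisation controls, described below, 17 members, or 53.1%, were lower, where 48.8% of all genes were, and none was higher. The median size of the difference was 0.112 on the log2 scale for the members and 0.115 for all genes. Below 0 lay 21 of the 32 members, or 65.6%, and 53.6% of all genes. With the arrays centred the member count became 18, where 49.6% of all genes were below 0. After repeated quantile normalisation it became 16, where 46.0% of all genes were. The median difference, MTA1 minus NC, was -0.045 for the members and -0.013 for all genes.

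**Figure D1:**
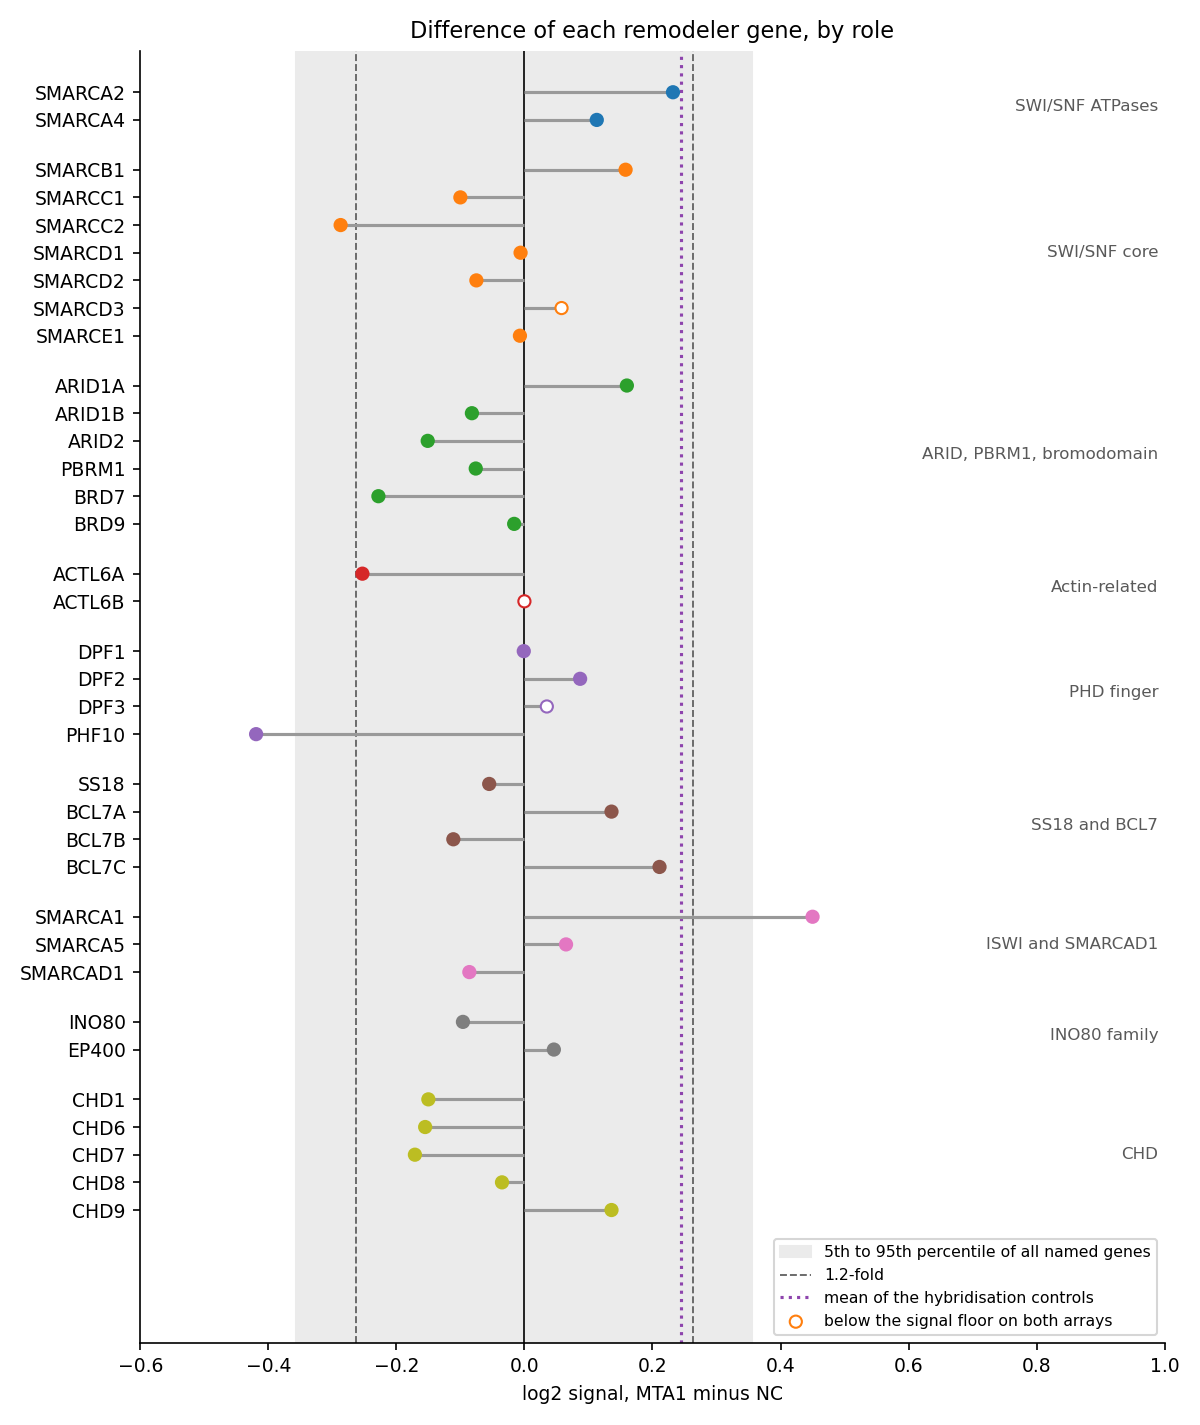
Log2 signal on the MTA1 array minus that on the NC array (x axis) for the 35 measured remodeler genes, grouped by role, with 1 array per group and so no error bars. SMARCA1 at 0.45 and PHF10 at -0.42 are the only points outside the shaded range of -0.36 to 0.36, which holds the 5th to 95th percentile of all named genes, and open points lay below the signal floor on both arrays.

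A scale for these differences came from the genes that have several clusters of their own. Over 149 such genes, the pooled SD of the MTA1 minus NC difference among the clusters of 1 gene was 0.267. It covers probe sets read on the same RNA and not separate cultures. Of the 32 members, 29 differed by less than this SD. At the nearly equal cut of 1.2-fold, a log2 size of 0.263, 90.6% of the members and 82.3% of all genes lay inside. The 4 hybridisation controls were higher on the MTA1 array by 0.229 to 0.276, with a mean of 0.245. Shifting the arrays to them moved the median of all genes to -0.258 and left SMARCA1, at 0.205, as the only member above 0. The signs given below hold for the deposited scale, on which the median gene is near 0. Centring and the shift to the controls move every gene alike, so measured from the median of all genes the 5 scalings come down to 3, as deposited, after loess and after repeated quantile normalisation. Across these 3, BRD9 was the 1 member of 32 that changed sign.

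**Figure D2:**
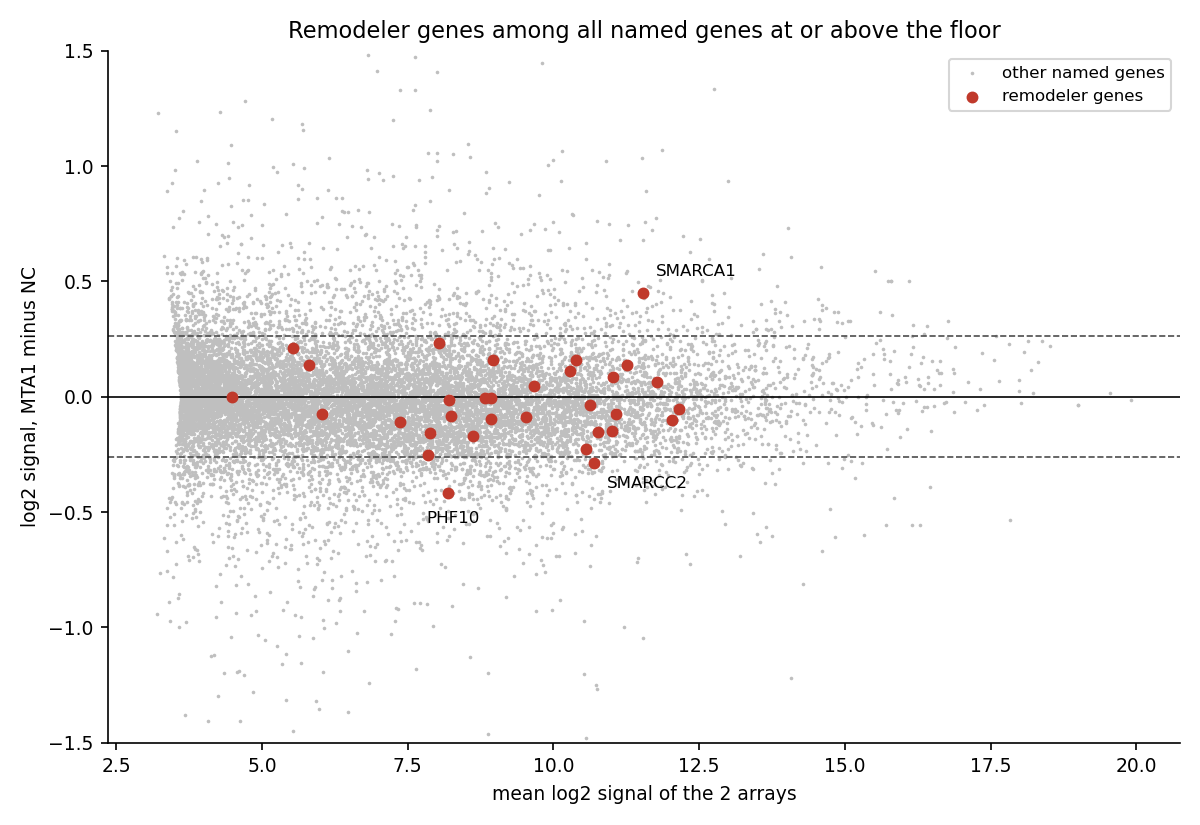
Mean log2 signal of the arrays (x axis) against the log2 difference, MTA1 minus NC (y axis), for the 32 remodeler genes at or above the floor (red) and all other named genes (grey), with dashed lines at 1.2-fold. The remodeler genes lie along 0 at all signals, with SMARCA1, PHF10 and SMARCC2 outside the dashed lines, and 16 genes beyond 1.5 on the y axis are not drawn.

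The highest and the lowest difference belonged to SMARCA1 and PHF10. SMARCA1, on chromosome X, encodes SNF2L, an ISWI ATPase prominent in neural cells. Its signal was 11.76 on the MTA1 array and 11.31 on the NC array, a log2 difference of 0.45, or 1.37-fold higher, and it ranked 427 from the top of 14451 genes. PHF10, on chromosome 6, encodes the PHD finger subunit that marks PBAF. Its signal was 7.98 on the MTA1 array and 8.39 on the NC array, a log2 difference of -0.42, or 1.34-fold lower, and it ranked 520 from the bottom. Compared with genes of like signal, these were the members outside the 5th to 95th percentile. By definition this band leaves about 5% of genes outside at each end, where 1 of the 32 members lay above it and 1 below. The upper limit was 0.364 among 1459 genes with a mean signal of at least 11, and the lower limit was -0.344 among 3192 genes between 7 and 9.

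The upstream sequences of SMARCA1 and PHF10 are shown because these genes stood at opposite ends of the list, and that of BRD7 because it was the next lowest PBAF gene. Each is the 250 bases before the RefSeq start site on the minus strand of GRCh38.p14, at chrX:129523491-129523740 for SMARCA1, chr6:169724501-169724750 for PHF10 and chr16:50368989-50369238 for BRD7. Capitals mark the GC box GGGCGG, read on both strands.
SMARCA1: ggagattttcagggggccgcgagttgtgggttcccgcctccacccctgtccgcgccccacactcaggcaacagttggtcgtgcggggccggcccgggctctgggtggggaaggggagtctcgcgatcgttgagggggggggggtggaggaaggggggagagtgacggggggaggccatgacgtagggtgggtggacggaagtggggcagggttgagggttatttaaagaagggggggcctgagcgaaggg
PHF10: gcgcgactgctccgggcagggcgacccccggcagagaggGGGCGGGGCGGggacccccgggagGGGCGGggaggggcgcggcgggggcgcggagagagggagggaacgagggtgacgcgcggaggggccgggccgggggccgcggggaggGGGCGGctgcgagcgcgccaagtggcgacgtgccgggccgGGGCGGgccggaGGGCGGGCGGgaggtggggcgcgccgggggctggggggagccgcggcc
BRD7: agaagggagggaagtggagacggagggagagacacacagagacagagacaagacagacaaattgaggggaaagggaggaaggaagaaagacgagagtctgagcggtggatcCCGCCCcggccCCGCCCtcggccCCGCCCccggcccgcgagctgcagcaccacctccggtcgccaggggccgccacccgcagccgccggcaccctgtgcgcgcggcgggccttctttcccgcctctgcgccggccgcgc
The window of SMARCA1 held no GC box and 16 CpG dinucleotides. That of PHF10 held 7 GC boxes, overlapping ones counted separately, and 39 CpG dinucleotides, and that of BRD7 held 3 GC boxes and 26. Of all 35116 windows of this length 42.6% held a GC box, and their median was 11 CpG dinucleotides. Windows were found for 30 of the 36 genes, 50 windows in all, of which 58.0% held a GC box. Some members above 0 held GC boxes too, such as BCL7C with 5 and ARID1A with 3. Of the windows of PBRM1, a PBAF gene below 0, 1 held none and the other held 6. A relation between GC boxes and the differences was not tested. SNAI1, which encodes the E-box repressor Snail, had a signal of 8.55 on the MTA1 array and 5.89 on the NC array, so its E-box, CAGGTG on either strand, was looked for as well. It occurred in 14.0% of the 50 remodeler windows and in 17.5% of all windows, and in none of the 3 shown. A match describes letters in a window and is not a site.

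The SWI/SNF ATPases were both above 0 on the deposited scale and both below it after the shift to the hybridisation controls. SMARCA2, which encodes BRM, had a signal of 8.15 on the MTA1 array and 7.92 on the NC array, or 1.18-fold higher. SMARCA4, which encodes BRG1, stood at 10.35 on the MTA1 array and 10.23 on the NC array, or 1.08-fold higher. Both paralogues, whose loss is known from some lung cancers, were well above the floor on both arrays. SMARCA2 passed 1.2-fold after loess, at 0.279, and after repeated quantile normalisation, at 0.276.

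**Figure D3:**
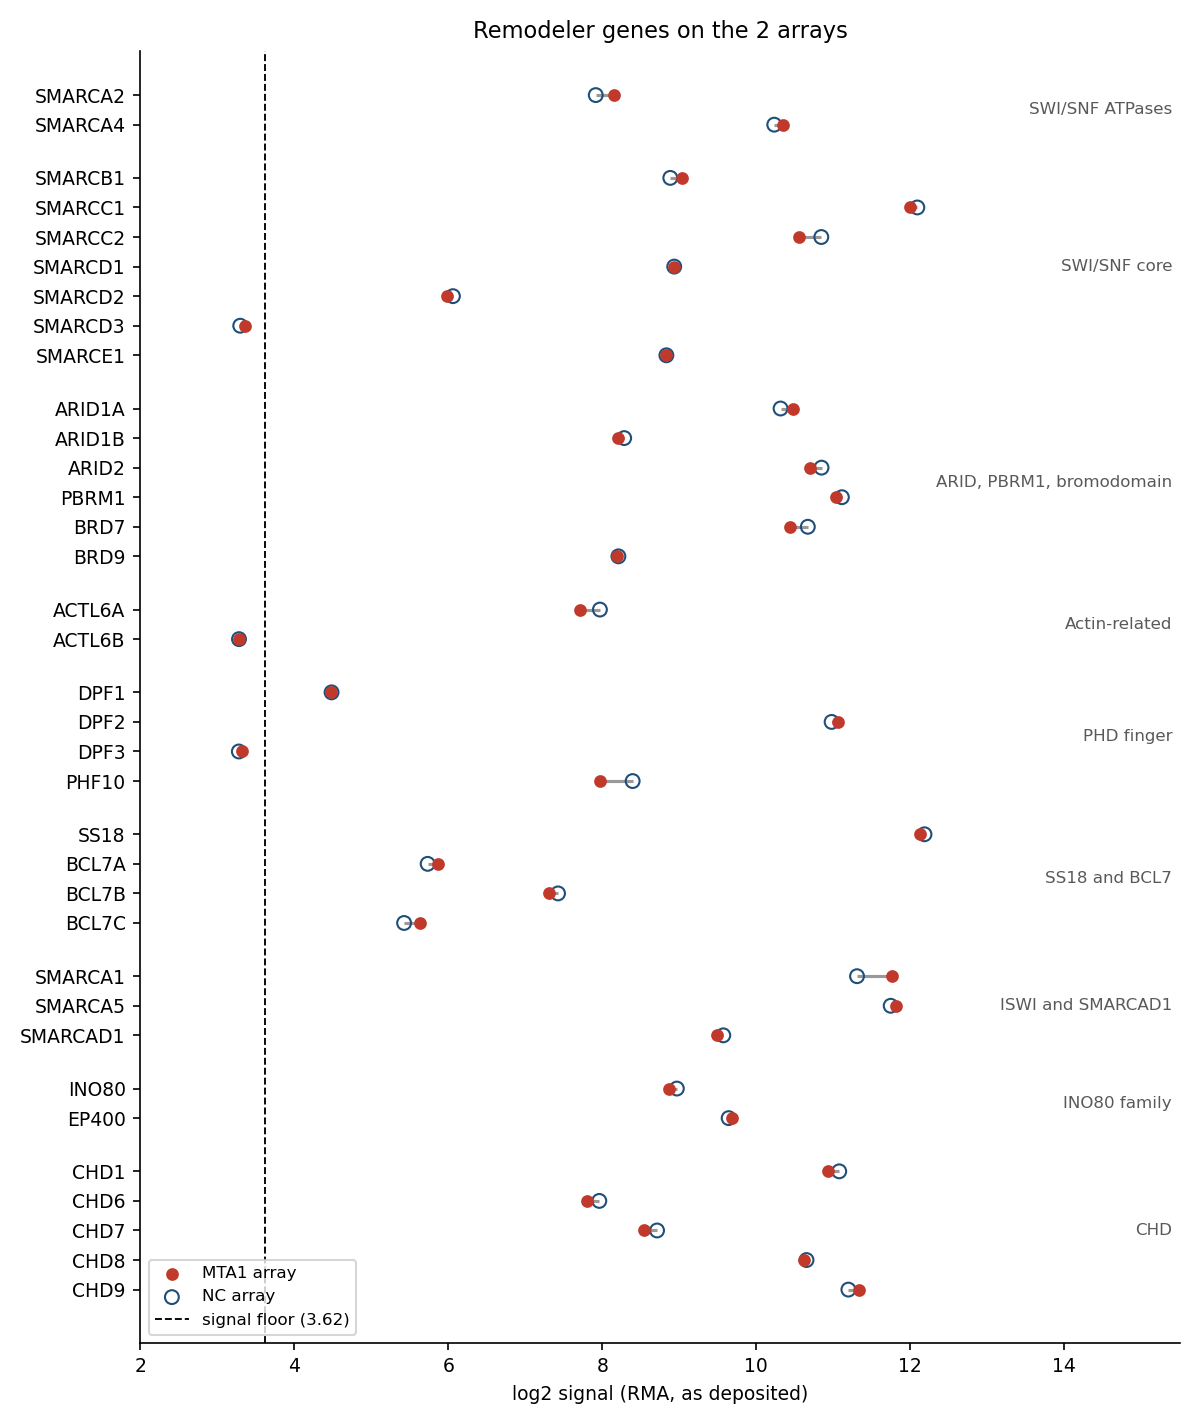
Log2 signal (x axis) of each measured remodeler gene on the MTA1 array (filled red) and the NC array (open blue), 1 array each, with the signal floor of 3.62 dashed. The points of each gene lie close together, SMARCD3, ACTL6B and DPF3 lie below the floor on both arrays, and signals of different genes come from different probes and are not comparable.

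Of the 7 core subunits, 6 were at or above the floor, and 5 of these were below 0, where 53.6% of all genes were. Their median was -0.04 and became 0.002 after loess. SMARCC2, a scaffold subunit that dimerises with SMARCC1, had the largest difference of the core, at 10.56 on the MTA1 array and 10.85 on the NC array, or 1.22-fold lower. It was the member closest past 1.2-fold, and after loess or repeated quantile normalisation, at -0.259 in both, it was inside that threshold. SMARCC1 stood at 11.99 on the MTA1 array and 12.09 on the NC array, a log2 difference of -0.10. SMARCB1, the tumour suppressor subunit that contacts the nucleosome's acidic patch, was the core gene above 0, at 9.04 on the MTA1 array and 8.88 on the NC array, or 1.12-fold higher, and at -0.087 after the shift to the hybridisation controls. SMARCE1, an HMG-box subunit, stood at 8.83 on both arrays. The SMARCD genes encode alternative subunits that link complexes to transcription factors. SMARCD1 stood at 8.93 on both arrays. SMARCD2 stood at 5.99 on the MTA1 array and 6.06 on the NC array. SMARCD3, known for its role in heart and muscle, was below the floor on both, at 3.36 on the MTA1 array and 3.30 on the NC array. The differences of SMARCD1 and SMARCE1, both -0.01, turned positive when the arrays were centred on their medians and after loess or repeated quantile normalisation, so their sign is not settled.

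Among the subunits that define the forms of SWI/SNF, all 4 PBAF-specific genes were below 0, where 53.6% of all genes were, with a median of -0.19. The BAF-specific list held ARID1A, ARID1B, DPF1, DPF2 and DPF3, and left out SS18, at -0.055. The 4 of these 5 at or above the floor had a median of 0.04, with 2 above 0 and 2 below. DPF1 had a low signal, and with the floor at percentile 75 the median became 0.087. The difference between these small groups depends on the genes listed and was not tested. ARID2, the DNA-binding subunit of PBAF, stood at 10.70 on the MTA1 array and 10.85 on the NC array, or 1.11-fold lower. PBRM1, with its array of bromodomains that read acetylated histones, was at 11.04 on the MTA1 array and 11.11 on the NC array, or 1.05-fold lower. BRD7, a bromodomain subunit that also binds p53, was at 10.44 on the MTA1 array and 10.67 on the NC array, or 1.17-fold lower. The differences of these genes and of PHF10 were also below 0 when the arrays were centred and after loess or repeated quantile normalisation. Of the 4, PHF10 passed 1.2-fold, where 9.35% of all genes were lower by as much.

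Among the BAF genes, ARID1A, often mutated in cancer, had a signal of 10.48 on the MTA1 array and 10.32 on the NC array, or 1.12-fold higher. Its paralogue ARID1B was at 8.20 on the MTA1 array and 8.29 on the NC array, or 1.06-fold lower. The log2 differences of the paralogues were 0.24 apart, a gap that was not tested. DPF2, a PHD finger subunit that binds acylated histone tails, was at 11.07 on the MTA1 array and 10.98 on the NC array. The signs of ARID1A and DPF2 turned negative after the shift to the hybridisation controls, at -0.085 and -0.158. BRD9, of the non-canonical complex, was at 8.19 on the MTA1 array and 8.21 on the NC array. Its sign depended on the scaling, at -0.02 as deposited and 0.03 after loess.

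The neuronal subunits were at or near background on both arrays. ACTL6B, the neuronal actin-related subunit, read 3.28 on both arrays, below the floor. DPF3 also lay below it, at 3.32 on the MTA1 array and 3.28 on the NC array. DPF1 was low but above the floor, at 4.48 on both arrays, and after loess its difference of -0.001 became 0.02. ACTL6A, the actin-related subunit of proliferating cells, was at 7.72 on the MTA1 array and 7.97 on the NC array, a log2 difference of -0.25, or 1.19-fold lower, just inside 1.2-fold. In the same cells most neuroendocrine markers read below the floor, while 3 of 4 neuronal markers, MAP2, SYT1 and SNAP25, were at or above it. A link between these readings was not tested.

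The accessory subunits were split. SS18, a BAF subunit that is fused to SSX genes in synovial sarcoma, was at 12.13 on the MTA1 array and 12.19 on the NC array. The BCL7 proteins are small subunits of all SWI/SNF forms. BCL7A was at 5.87 on the MTA1 array and 5.73 on the NC array, a log2 difference of 0.14. BCL7C was at 5.64 on the MTA1 array and 5.43 on the NC array, or 1.16-fold higher. BCL7B was at 7.32 on the MTA1 array and 7.43 on the NC array, or 1.08-fold lower. BCL7A and BCL7C also lay above 0 after loess and repeated quantile normalisation and below 0 after the shift to the hybridisation controls, at -0.109 and -0.034.

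The ISWI ATPases are SMARCA1, described above, and SMARCA5. SMARCA5, which encodes the broadly expressed SNF2H, stood at 11.81 on the MTA1 array and 11.75 on the NC array, a log2 difference of 0.06. The difference of SMARCA1 was therefore larger by 0.39. Other related pairs were up to 0.51 apart, between DPF2 and PHF10, with 0.32 between BCL7C and BCL7B, 0.31 between CHD9 and CHD7 and 0.12 between SMARCA2 and SMARCA4. SMARCAD1, an ATPase that helps to restore silent chromatin after replication, was at 9.49 on the MTA1 array and 9.57 on the NC array. The INO80-family ATPases were close to level. INO80, which acts at replication forks and promoters, was at 8.87 on the MTA1 array and 8.97 on the NC array. EP400, the ATPase of the TIP60 acetyltransferase complex, was at 9.69 on the MTA1 array and 9.64 on the NC array, and at -0.199 after the shift to the hybridisation controls.

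Of the 5 measured CHD genes 4 were below 0, where 53.6% of all genes were, with a median of -0.15. None reached 1.2-fold, which 8.4% of all genes did on the higher side and 9.35% on the lower side. CHD1, which binds a methylated histone tail at active promoters, was at 10.93 on the MTA1 array and 11.08 on the NC array, or 1.11-fold lower. CHD6 was at 7.81 on the MTA1 array and 7.96 on the NC array, or 1.11-fold lower. CHD7, the gene mutated in CHARGE syndrome, was at 8.54 on the MTA1 array and 8.71 on the NC array, or 1.13-fold lower. CHD8, which binds beta-catenin, was nearly level at 10.62 on the MTA1 array and 10.65 on the NC array. CHD9 ran the other way, at 11.33 on the MTA1 array and 11.20 on the NC array, a log2 difference of 0.14, and at -0.109 after the shift to the hybridisation controls. The cluster that lists CHD2 and CHASERR read 8.84 on the MTA1 array and 8.86 on the NC array. The other, which lists MIR3175 as well, read 9.51 on the MTA1 array and 9.58 on the NC array.

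Partner genes of the same complexes that are not among the 36 were described from 5 lists of 47 genes, of which 46 were at or above the floor. Their differences ran between -0.31 and 0.25, with a median of -0.02. None passed 1.2-fold on the higher side, where 8.4% of all genes did, and 3 passed it on the lower side, where 9.35% did. In the INO80 complex, 7 of 13 subunits were above 0, where 46.4% of all genes were, and the median was 0.00. UCHL5, its deubiquitinase, which also serves the proteasome, was at 9.24 on the MTA1 array and 9.55 on the NC array, or 1.24-fold lower. RUVBL1, a helicase-like ATPase shared with the SRCAP and TIP60 complexes, was 1.18-fold lower, and NFRKB 1.06-fold higher.

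Of 16 genes of the SRCAP and TIP60 complexes, which exchange and acetylate histones, 14 were below 0, where 53.6% of all genes were, with a median of -0.09. Several lay close to 0, and 12 of the 16 were below the median of all genes. EPC2, a TIP60 scaffold protein, was at 9.10 on the MTA1 array and 9.40 on the NC array, or 1.23-fold lower. ING3, its histone reader, was at 5.91 on the MTA1 array and 6.18 on the NC array, or 1.21-fold lower. MBTD1, another reader of that complex, had a log2 difference of -0.26, just inside the threshold. The ISWI partners had a median of -0.04 over 10 genes at or above the floor, none past 1.2-fold, with BAZ1B, BAZ1A and CHRAC1 lower by 1.13-fold, 1.08-fold and 1.07-fold. CECR2, an ISWI partner known from neural tube development, was below the floor on both arrays.

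Other SWI/SNF genes, a list of 4, had a median of 0.02. BICRAL, of the non-canonical complex, was at 6.59 on the MTA1 array and 6.35 on the NC array, or 1.19-fold higher, and SS18L1, the neuronal paralogue of SS18, had a log2 difference of -0.13. ACTB, the beta-actin found in these complexes and in the cytoskeleton, was level at 15.00 on the MTA1 array and 14.97 on the NC array. Of the CHD ATPases of NuRD, MTA1's own complex, CHD3 was at 10.05 on the MTA1 array and 10.30 on the NC array, or 1.19-fold lower. CHD4 was at 11.11 on the MTA1 array and 11.13 on the NC array. CHD5, a neural gene, was at the floor with 3.62 on the MTA1 array and 3.57 on the NC array. The signs of these lists are those of the deposited scale, and after the shift to the hybridisation controls the median of each of the 6 lists was below 0.

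**Figure D4:**
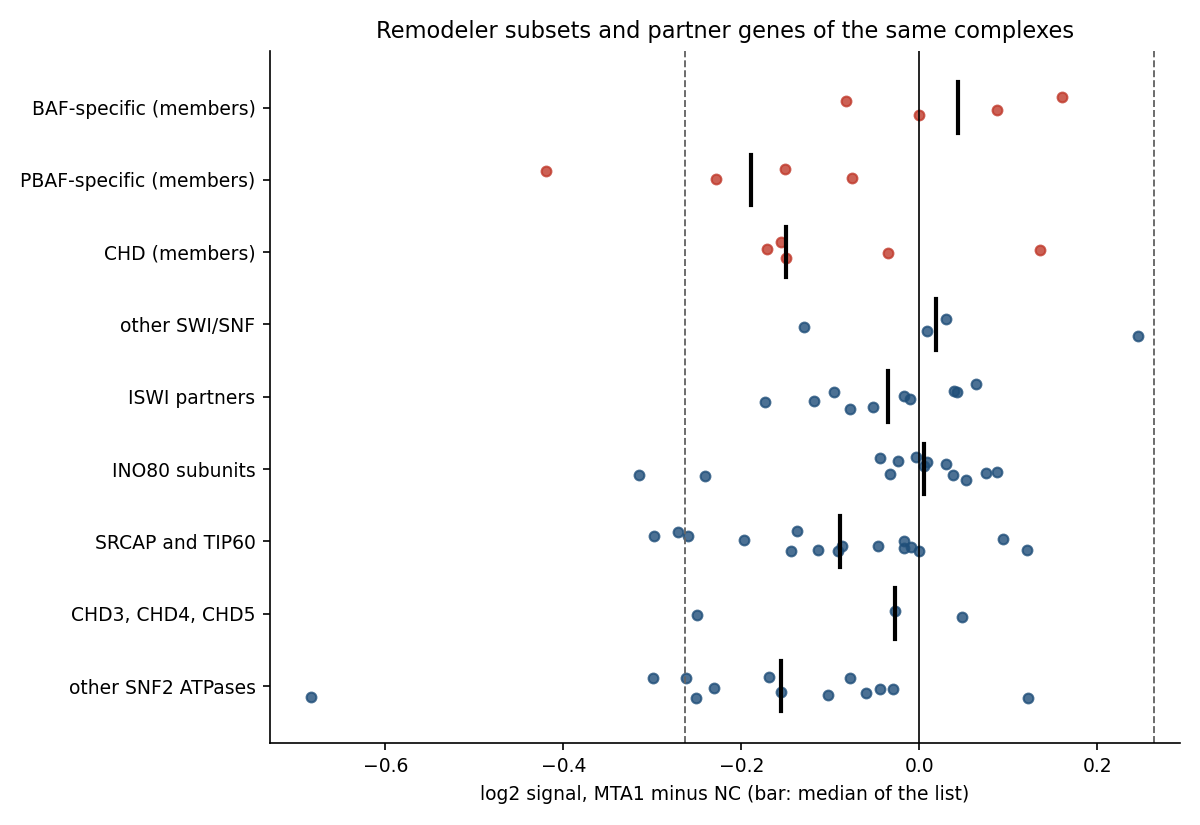
Log2 difference, MTA1 minus NC (x axis), of each gene at or above the floor in 3 subsets of the remodeler list (red) and in 6 lists of related genes (blue), with the median of each as a black bar and dashed lines at 1.2-fold. All 4 PBAF-specific genes and 14 of 16 SRCAP and TIP60 genes lie left of 0, and the leftmost point, among the other SNF2 ATPases, is HLTF.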

How the data were processed

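The deposited values are log2 signals that the authors made with RMA, per the submitters' processing notes, from 1 Affymetrix array per group. The labels name no software version, summary level or genome build. No further scaling was applied. The 70523 features held 67528 transcript clusters, and 1 value was missing. Of the clusters, 23781 had 1 gene symbol and 42204 were unnamed here, and 1543 with several symbols gave no gene name. Symbols were updated by gene identifier for 21497 clusters through a RefSeq table (GRCh38.p14), including all 35 measured members. That table also gave the chromosomes.

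Each gene was taken at its brightest cluster. Differences are MTA1 minus NC. Thresholds of 1.2-fold, 1.5-fold and 2-fold were counted over 14451 genes, and the counting was tested on simulated data. No test was possible, and the number of arrays limits the precision. The members and lists were chosen with earlier results of these data known. All members are named, plus, from each related list, up to 3 genes of largest difference. SNAI1, CECR2, RAD54L, the motifs and the paralogue pairs were chosen after values were seen. Promoter windows came from RefSeq. The 8 alternatives changed the scaling, the cluster per gene and the floor. Python 3.11.15, numpy 2.4.6, pandas 2.3.3, matplotlib 3.10.9 and, for loess and quantile normalisation, R 4.3.3 with limma 3.58.1 were used.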

Additional observations from a re-analysis of the deposited data

How the results depend on the processing

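With 1 array per group no replicate could be left out. No paired analysis was possible because each group had 1 array. Of the 8 alternatives, the shift to the hybridisation controls changed most. It gave the members a median difference of -0.29, against -0.045 as deposited, and all genes one of -0.258. It left 0 members at least 1.2-fold higher, 17 at least 1.2-fold lower and 1, PHF10, at least 1.5-fold lower. After loess, 2 members were at least 1.2-fold higher and 1 lower, and after repeated quantile normalisation 3 higher and 1 lower, against 1 higher and 2 lower as deposited. The genes that crossed were SMARCA2, SMARCC2 and, after quantile normalisation, BCL7C. Centring the arrays, averaging the clusters of a gene, allowing clusters with several symbols, raising the floor to percentile 75 and dropping it left these counts within 1.5 times. No member reached 2-fold under any alternative. SMARCA1, PHF10 and SMARCC2, past 1.2-fold as deposited, kept their sign, while 10 of the 11 members above 0 fell below it under the shift to the hybridisation controls, SMARCA2 and BCL7C among them. Each measured member has 1 cluster, so the settings on clusters and floor leave its value as it is. Of 144 list medians 21 moved by more than 0.1, 18 of them under the shift to the hybridisation controls. Signal over background limits SMARCD3, ACTL6B and DPF3, which entered the counts only without a floor, where the member median was -0.016.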

Other observations

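Besides the remodelers and partner genes described above, the SNF2 family holds other ATPases. Some of them work on stalled forks and DNA damage or on DNA methylation. From a list of 15 of these other ATPases, of mixed function, 13 were measured, all at or above the floor. Of the 13, 12 were below 0, where 53.6% of all genes were, with a median of -0.16. Of these genes 2, HLTF and HELLS, were at least 1.2-fold lower, where 9.35% of all genes were. The largest difference was that of HLTF, a translocase and ubiquitin ligase that remodels stalled replication forks. HLTF stood at 11.93 on the MTA1 array and 12.61 on the NC array, a log2 difference of -0.68, or 1.61-fold lower, and ranked 160 from the bottom of 14451 genes. HELLS, which is needed for DNA methylation, was at 10.03 on the MTA1 array and 10.32 on the NC array, or 1.23-fold lower. SHPRH, a paralogue of HLTF, was at 8.22 on the MTA1 array and 8.48 on the NC array, a log2 difference of -0.26. RAD54L, a recombination ATPase, was the 1 gene above 0, at 7.48 on the MTA1 array and 7.36 on the NC array, and was below 0 after the shift to the hybridisation controls. ERCC6 and RAD54B had no cluster of their own here.

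The core NuRD list, which leaves out MTA1, held 14 genes at or above the floor with a median of -0.01. Of these 9 were below 0, where 53.6% of all genes were. None passed 1.2-fold, which 8.4% of all genes did on the higher side and 9.35% on the lower side.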
